A study of Mus musculus with 4 samples.

Results

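The genes described here encode proteins that store, release and re-uptake calcium at the sarcoplasmic reticulum of heart muscle. They were chosen by name, as 10 genes: Hrc, Sri, Casq1, Casq2, Pln, Atp2a2, Ryr2, Trdn, Srl and S100a1. Every probe set annotated to exactly 1 gene of that name or synonym was taken, which gave 9 probe sets for 7 of the 10 genes, out of 8251 genes with such a probe set on the array. Pln, Trdn and Srl had none and were not analysed here. The samples were ventricles at baseline, without pressure overload, from ERRα knockout mice (2 arrays, labelled ERRa ko) and from ERRα wild-type mice (2 arrays, labelled ERRa wt). Each gave total RNA on 1 one-colour Affymetrix array. The strain, sex and age of the mice, how the allele was made and how many animals went into a sample are not given in the sources used here. Nothing says that samples 1 and 2 of a genotype came from different mice, so the p-values measure the spread between 2 samples that may be technical repeats.

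ERRα is an orphan nuclear receptor, encoded by Esrra, that activates genes of mitochondrial energy metabolism in heart and muscle. In each heartbeat, calcium that enters through the cell membrane opens the ryanodine receptor, and the stored calcium that leaves through it drives contraction. The SERCA pump then returns calcium to the store, where luminal proteins bind it. Calcium return is one of the large energy costs of the heartbeat.

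The promoter sequences of 4 of the genes are shown because the mice lack a transcription factor that binds DNA at its target genes, and Hrc and Sri were the 2 genes of the group that lay lower in knockout hearts without overlap. Each runs from 250 bases before to 50 bases after the gene's start, 5′ to 3′ on the gene's strand, from RefSeq on GRCm38.p6. The windows are chr7:45335019-45335318 on the plus strand for Hrc, chr5:8045828-8046127 on the plus strand for Sri, chr13:12106896-12107195 on the minus strand for Ryr2 and chr3:102086165-102086464 on the plus strand for Casq2. Capitals mark the E-box CAGCTG in Hrc, the nuclear receptor motif AGGTCA in Ryr2 and a match to the MEF2 consensus in Casq2.
Hrc: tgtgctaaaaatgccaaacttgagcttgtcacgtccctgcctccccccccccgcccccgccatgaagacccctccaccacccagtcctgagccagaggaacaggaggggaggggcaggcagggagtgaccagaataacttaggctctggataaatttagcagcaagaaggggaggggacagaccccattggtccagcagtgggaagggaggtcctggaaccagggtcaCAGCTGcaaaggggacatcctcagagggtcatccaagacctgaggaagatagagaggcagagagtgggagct
Sri: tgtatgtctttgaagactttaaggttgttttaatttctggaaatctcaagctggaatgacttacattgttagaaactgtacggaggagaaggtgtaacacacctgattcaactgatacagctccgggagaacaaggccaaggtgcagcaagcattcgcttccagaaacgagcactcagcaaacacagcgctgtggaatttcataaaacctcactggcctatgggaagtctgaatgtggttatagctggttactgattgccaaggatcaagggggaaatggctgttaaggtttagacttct
Ryr2: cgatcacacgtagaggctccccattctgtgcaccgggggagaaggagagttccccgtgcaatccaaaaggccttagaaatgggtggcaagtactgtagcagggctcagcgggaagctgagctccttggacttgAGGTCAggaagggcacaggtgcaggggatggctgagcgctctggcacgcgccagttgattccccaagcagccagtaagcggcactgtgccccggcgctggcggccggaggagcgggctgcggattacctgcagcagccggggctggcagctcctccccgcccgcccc
Casq2: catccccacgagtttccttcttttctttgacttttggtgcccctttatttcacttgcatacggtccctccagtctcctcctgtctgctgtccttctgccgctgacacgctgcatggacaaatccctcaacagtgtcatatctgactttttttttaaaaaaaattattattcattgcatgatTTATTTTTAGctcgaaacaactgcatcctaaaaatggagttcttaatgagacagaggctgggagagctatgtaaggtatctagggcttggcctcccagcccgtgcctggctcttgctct

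Entries existed for 7 of the 10 genes, namely these 4 and Casq1, Pln and S100a1. Both strands were searched. The ERR core motif AAGGTCA was in 0 of the 7 windows, against 4.72% of all 32851 promoters of the same length, and its longer form TNAAGGTCA was in 0 of the 7, against 1.28%. The shorter AGGTCA, which lies inside both, was in 1 of the 7, 117 bases before the start of Ryr2, against 16.3% of all promoters. The E-box CAGCTG was in 3 of the 7, beginning 22 bases before the start of Hrc, 195 before that of Casq1 and 8 after that of Pln, against 16.3%. The MEF2 consensus was in 1 of the 7, beginning 69 bases before the start of Casq2, against 3.19%. The Sri window held none of the 5 motifs. A match is a description of letters, and its absence from a window of 300 bases says nothing of binding elsewhere. The E-box, AGGTCA and MEF2 motifs were added after the array values were known.

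The deposited values were 1 scaled signal per probe set and array. The targeted gene checked the labels: Esrra gave signals of 83.6 and 55.2 in knockout against 2688 and 2828 in wild type on 1 probe set, which passed (limma adjusted p = 0.0441, a call lost when any 1 array was left out), and 922 and 1050.2 against 8598 and 8038.5 on the other (limma adjusted p = 0.179). Genome-wide, 1 of 7453 tested probe sets passed an adjusted p of 0.05 (0.0134%), and it was that Esrra probe set. The correlations within a genotype lay inside the range of those between genotypes: Spearman's rho across 12422 probe sets, which are not independent replicates, was 0.933 between the knockout arrays, 0.935 between the wild-type arrays and 0.927 to 0.941 between genotypes. The ratio of 5′ to 3′ signal was 0.694 and 0.813 in knockout against 0.966 and 0.909 in wild type for β-actin, and 0.994 and 0.968 against 1.04 and 1.01 for Gapdh. The ventricular cardiomyocyte markers Myh6, Myl2 and Tnni3 gave signals from 95332 to 205416 on the 4 arrays.

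Of the 7 tested probe sets of the group, 1 per gene, 0 passed limma's adjusted threshold (lowest adjusted p = 0.694, for Hrc), and 2, Hrc and Sri, had an unadjusted limma p under 0.05. Sri no longer had one with the replicate number as a block (0.0815) or without any 1 array (0.0727 to 0.165), and Hrc did in each of these. Both were lower in knockout, where 2.66% of all tested probe sets were lower and 6.79% differed in either direction at that p. The knockout arrays lay below both wild-type arrays for 2 of 7 genes (28.6%), against 16.7% of all tested probe sets, and above them for 1 of 7 (14.3%), against 20.7%. For the other 4 genes the genotypes overlapped. Differences of at least 1.5-fold without overlap were seen in 1 of 7, Hrc, where all tested probe sets gave 4.20% lower and 6.84% higher. The median log2 difference of the 7 was 0.05, beside 0.03 over all tested probe sets.

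**Figure D1:**
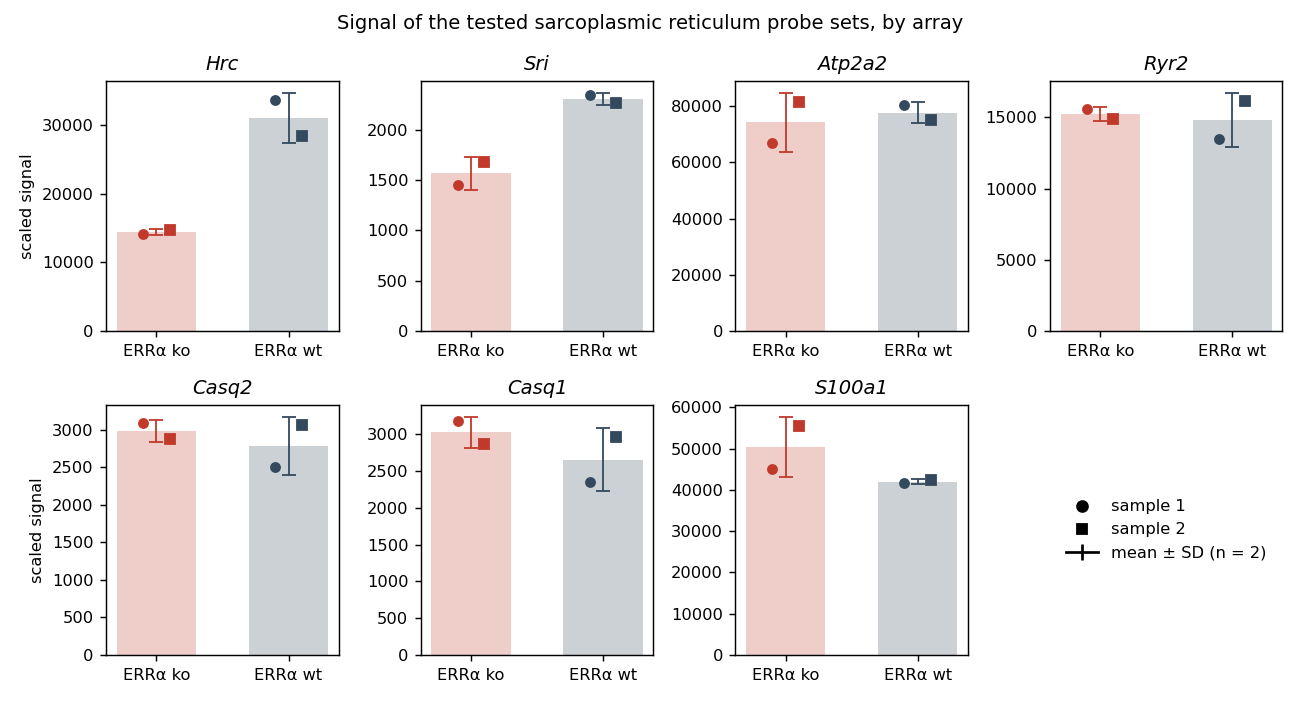
Scaled signal of each tested probe set of the group (y axis, from 0) in knockout and wild-type ventricles; circles are sample 1, squares sample 2, bars the mean with its SD (n = 2). Both knockout arrays lie below both wild-type arrays for Hrc and Sri, and above them for S100a1.

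Among the luminal calcium-binding proteins of the group, only Hrc was lower without overlap. It encodes the histidine-rich calcium-binding protein, which binds calcium inside the sarcoplasmic reticulum and also binds triadin and the SERCA pump. Its signal was 14101 and 14689 in knockout ventricles, against 33601 and 28438 in wild-type ventricles. The knockout arrays were close to each other, and the lower wild-type array was still far above both. The means were 14395 ± 416 in knockout and 31020 ± 3651 in wild type (SD, n = 2 each), a log2 difference of -1.10 (SE 0.21, 95% interval -1.66 to -0.55), so that wild type was 2.15-fold higher. Adjusted over all 7453 probe sets the difference did not pass (limma adjusted p = 0.694). The unadjusted limma p was 0.00438, rank 46 of 7453.

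The Hrc difference lay near the low end of all tested probe sets. Over all tested probe sets 102 of 7453 had a log2 difference at or below that of Hrc. In the brightest of 5 equal bins of mean signal, 7 of 1491 did, Hrc included. The other 6, which were singled out by this rank and so after their values were seen, were Tradd, Cd59a, Wdr92, Rcan1, Fhl1 and H2-K2, with log2 differences of -1.96, -1.73, -1.63, -1.40, -1.20 and -1.16. Rcan1, a calcineurin inhibitor that calcium signalling itself induces, had its signal carried by wild-type sample 1: it gave 2301 and 2590 in knockout against 12019 and 3433 in wild type. Nppb, the B-type natriuretic peptide of stretched ventricle, was also highest in that sample, with 20537 and 18470 in knockout against 87183 and 14065 in wild type. Hrc was highest there too, and without that array its log2 difference was -0.98. Nppb was named here after its values were seen, and the part of wild-type sample 1 in the Hrc difference was not tested.

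**Figure D2:**
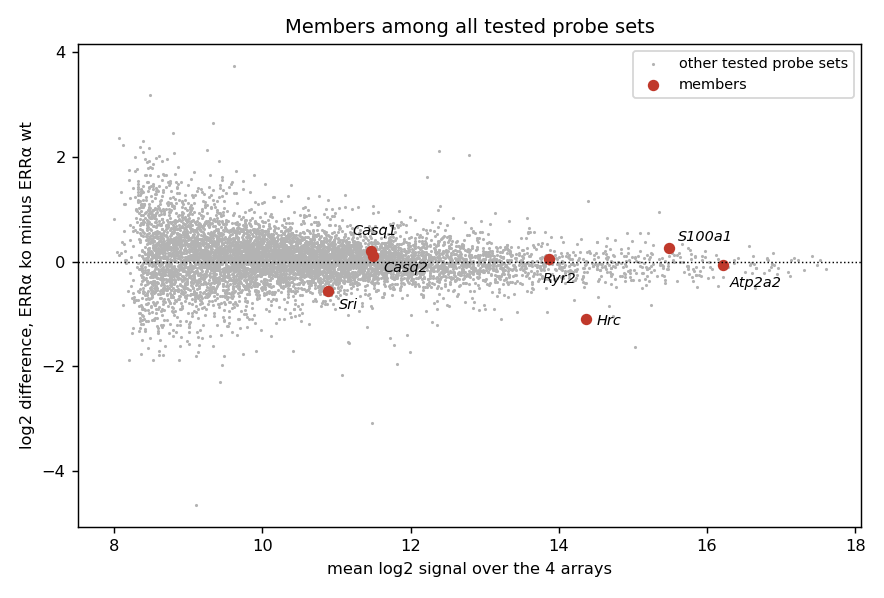
Log2 difference, knockout minus wild type (y axis), against mean log2 signal over the 4 arrays (x axis) for the 7453 tested probe sets; grey points are other probe sets and red points the 7 of the group. Hrc lies at -1.10 in the region of strong signal where few grey points reach that far. The other genes of the group lie inside the grey cloud, Sri among them at -0.56.

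Markers of the heart muscle cell mostly had lower means in knockout, and none passed. With the brightest probe set of each gene, the 10 measured ventricular cardiomyocyte markers of a list of 11 all had a lower mean in knockout, and 5 of them did not overlap, where 16.7% of all tested probe sets were lower without overlap. Over all 12 tested probe sets of these genes 10 had a lower and 2 a higher mean, with log2 differences from -0.85 to 0.54. Of the 12, 0 passed by limma or had an unadjusted limma p under 0.05. Nppb, with the values given above, was lower only through wild-type sample 1. The median of the 10 log2 differences was -0.16. It was -0.11 after quantile normalization and -0.29 after median scaling, with 10 of 10 lower each time. Their summed signal was 943952 and 1099582 in knockout against 1229562 and 1131054 in wild type. Mybpc3, a thick filament protein, had the largest difference of the 10 after Nppb, at -0.50. All 4 tested atrial markers of a list of 6 were higher without overlap, against 20.7% of all tested probe sets, with a median of 0.92 and summed signals over the 6 of 21540 and 21562 against 13076 and 10674, and neither Bmp10 nor Sln of that list reached the filter. Of the 6 fibroblast markers 5 were likewise higher without overlap with the brightest probe set of each gene (summed signal 80978 and 84093 against 58457 and 69489), and of the 6 endothelial markers 5 had a lower mean and 2 were lower without overlap (13117 and 12470 against 17448 and 14294). Smooth muscle markers summed to 24244 and 16384 in knockout against 9532 and 8479 in wild type, a difference carried by Acta2 alone, with 18753 and 10916 against 4135 and 2909; Tagln, Myh11 and Smtn overlapped. Adipocyte markers differed in direction, with Adipoq at a log2 difference of 1.44, Lep at 0.76 and Cidea at -0.76, and summed to 3928 and 4237 against 3890 and 3469. None of these lists had a member that passed, and the genes named from them were picked after their values were seen. Immune markers (7850 and 6458 against 6957 and 6046) and erythroid markers (157613 and 223307 against 204418 and 148883) overlapped. The ratios of 5′ to 3′ signal given above were also lower in knockout. The part of these in the Hrc and Sri differences was not tested. In RNA from whole ventricle, fewer cells of a type and less RNA per cell cannot be told apart.

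The calsequestrins, which hold most of the calcium inside the store, did not follow Hrc. Casq2, the cardiac form, gave 3090 and 2881 in knockout against 2509 and 3062 in wild type. The genotypes overlapped, since the wild-type arrays lay further apart than the knockout arrays. The log2 difference was 0.11 (95% interval -0.47 to 0.68, limma adjusted p = 0.941). Casq1, the form that predominates in skeletal muscle, gave 3175 and 2871 in knockout against 2351 and 2954 in wild type. Again the genotypes overlapped and wild-type sample 1 was the lowest of the 4 arrays, with a log2 difference of 0.20 (95% interval -0.41 to 0.80, limma adjusted p = 0.882).

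The Casq1 and Casq2 probe sets followed each other across the arrays, an observation made after their values were seen. Centred on their own means over the 4 arrays, their log2 signals differed by at most 0.067 on any array. Of 6696 other single-gene probe sets, 32 were nearer to Casq1 than Casq2 was and 44 were nearer to Casq2 than Casq1 was. Whether the Casq1 probe set also detects Casq2 was not tested. Skeletal muscle markers were measured beside it: of 13, 8 passed the filter, Myh2 stayed below the floor of 110 on all arrays, and Myh1, Ryr1, Tnni2 and Tnnt3 also failed the filter. Summed over the 13, their signal was 13057 and 10175 in knockout against 9082 and 9205 in wild type. Parvalbumin, encoded by Pvalb, gave 6744 and 3715 against 3126 and 3063 within that sum.

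Calcium release was represented by Ryr2 and its regulator Sri. Ryr2, the ryanodine receptor through which calcium leaves the store, gave 15600 and 14893 in knockout against 13481 and 16147 in wild type. Both knockout arrays lay between the wild-type arrays. The log2 difference was 0.05 (95% interval -0.52 to 0.61, limma adjusted p = 0.965). Sri encodes sorcin, a calcium-binding protein that associates with the ryanodine receptor and reduces its opening. It gave 1452 and 1678.5 in knockout against 2345 and 2260.2 in wild type. The groups did not overlap, and the gap between them was wider than the distance between either pair of replicates. The means were 1565 ± 160 in knockout and 2303 ± 60.2 in wild type (SD, n = 2 each), a log2 difference of -0.56 (SE 0.21, 95% interval -1.11 to -0.01), so that wild type was 1.47-fold higher (limma adjusted p = 0.724). Among the 1490 probe sets in its bin of mean signal, 52 had a log2 difference as low.

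The calcium pump gene Atp2a2 overlapped between genotypes, and its partner S100a1 lay slightly higher in knockout. Atp2a2, which encodes SERCA2, the pump that refills the store, gave 66835 and 81597 in knockout against 80305 and 75103 in wild type. The knockout arrays spanned the wild-type arrays, with a log2 difference of -0.07 (95% interval -0.65 to 0.50, limma adjusted p = 0.951). S100a1, an EF-hand protein that binds both SERCA2 and the ryanodine receptor, gave 45176 and 55601 in knockout against 41575 and 42371 in wild type on its bright probe set. Both knockout arrays were higher, but the knockout arrays differed from each other by more than the gap between the groups. The log2 difference was 0.26 (95% interval -0.32 to 0.83, limma adjusted p = 0.837). The suffixes of the Atp2a2 and S100a1 probe sets mark sequence shared with other transcripts. The other S100a1 probe sets were at or near the floor, at 173.1 and 19.8 against 57.4 and 80.0, and at 122.1 and 83.3 against 92.4 and 76.6, and were not tested.

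For these 5 genes with no difference past either p, the intervals ran from 0.637-fold to 1.78-fold of wild type. Phospholamban, the inhibitor of SERCA2 encoded by Pln, was not analysed here. Its relative sarcolipin, encoded by Sln and mostly atrial in mouse heart, gave 147.6 and 411.2 in knockout against 110.6 and 80.0 in wild type, which was below the filter; it was singled out after its values were seen.

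**Figure D3:**
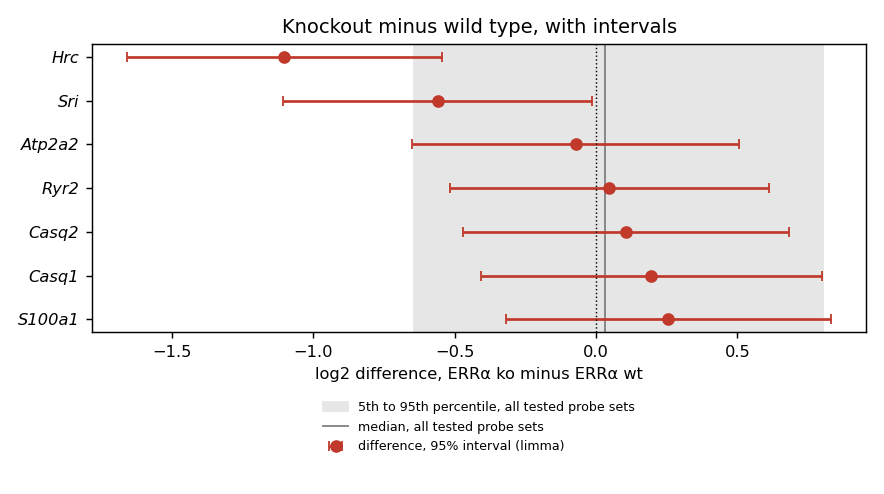
Log2 difference, knockout minus wild type (x axis), with its 95% interval from limma (n = 2 each) for the 7 tested probe sets; the grey band runs from the 5th to the 95th percentile of all tested probe sets (-0.64 to 0.80) and the grey line is their median (0.03). Hrc lies outside the band, the intervals of Hrc and Sri end below 0 and the other 5 cross it.

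The scaling of the arrays set some of the small differences. Median scaling lowered the median of all tested probe sets to -0.10, from 0.03 as deposited, and the group's median to -0.08. Hrc then had -1.23 and Sri -0.68, or -1.13 and -0.59 relative to the median of all. The knockout arrays of Atp2a2 then also lay below both wild-type arrays (log2 difference -0.20), and S100a1 overlapped (0.13). After quantile normalization Hrc had -1.05, Sri -0.59, Atp2a2 0.03 and S100a1 0.29.

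The expression profile most like that of Hrc, by Euclidean distance between log2 profiles centred over the 4 arrays, was that of Rce1, which encodes a protease of prenylated proteins (distance 0.109), with 604 and 633 in knockout against 1458 and 1124 in wild type. Clu, which encodes the secreted chaperone clusterin, followed at 0.154, with 9841 and 11055 against 22402 and 18647. Nipbl, the cohesin loader, was next at 0.182, with 383 and 404 against 875 and 666. The measure ranks 6696 single-gene probe sets on 4 values each.

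Other genes of calcium handling outside the reticulum's core proteins were read from a list of 91 genes in 8 roles, of which 62 had a probe set and 49 genes were tested on 58 probe sets. None passed in either direction (0 of 58 by limma, with 6, or 10.3%, at an unadjusted p under 0.05, beside 6.79% of all). Knockout lay above wild type without overlap in 14 of 58 (24.1%) and below in 9 (15.5%), close to the 20.7% and 16.7% of all tested probe sets. The median log2 difference was 0.03, also that of all tested probe sets. Differences of at least 1.5-fold without overlap were seen in 6 higher (10.3%) and 2 lower (3.45%), beside 6.84% and 4.20% of all tested probe sets.

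Partners of the release channel and of the junction between membrane and store had 1 of 6 probe sets lower and 2 of 6 higher without overlap. Over all tested probe sets these shares were 16.7% and 20.7%. Fkbp1b, which encodes the FK506-binding protein that binds the cardiac ryanodine receptor, gave 1008 and 1304 in knockout against 2119 and 1361 in wild type (log2 difference -0.57, limma adjusted p = 0.805). Wild-type sample 1 stood above the other 3 arrays. Bin1, a protein of membrane tubules, gave 1068 and 1295 against 757 and 765 on 1 probe set (log2 difference 0.63, limma adjusted p = 0.694), and the genotypes overlapped on its other probe set (log2 difference 0.22).

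Luminal calcium-binding proteins of the general endoplasmic reticulum had a median of -0.10 over 7 probe sets, 2 lower and 1 higher without overlap. All tested probe sets gave 16.7% lower and 20.7% higher without overlap. Rcn1, reticulocalbin 1, gave 676 and 546 in knockout against 1011 and 1054 in wild type (log2 difference -0.76, limma adjusted p = 0.694). Like Hrc, Rcn1 lay at least 1.5-fold lower without overlap, as 1 of the 7 (14.3%), beside 4.20% of all tested probe sets. Rcn2, its relative, lay the other way, with 1290 and 1185 against 937 and 968 (log2 difference 0.38, limma adjusted p = 0.795). Among other store pumps and channels, with a median of -0.17 over 5 probe sets, Atp2a1, the skeletal SERCA pump, gave 625 and 554 against 775 and 770 (log2 difference -0.39, limma adjusted p = 0.791). Ryr3, another ryanodine receptor, gave 999 and 779 against 685 and 817, and its groups overlapped (log2 difference 0.24, limma adjusted p = 0.865).

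Kinases, phosphatases and calmodulin had 4 of 16 probe sets higher and 1 lower without overlap, with a median of 0.04. Of all tested probe sets, 20.7% were higher and 16.7% lower without overlap, and 16 probe sets are few for such a comparison. Camk2b, a calmodulin-dependent kinase subunit, gave 817 and 927 in knockout against 503 and 338 in wild type (log2 difference 1.08, limma adjusted p = 0.694). Ppp2ca, a catalytic subunit of protein phosphatase 2A, gave 448 and 622 against 257 and 314 (log2 difference 0.89, limma adjusted p = 0.694). Both were weak signals, and the main cardiac kinase isoform Camk2d, named after its values were seen, gave 250.2 and 740.2 against 188 and 367 with overlap.

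Cytosolic EF-hand and related proteins had 5 of 12 probe sets higher (41.7%) and 2 lower (16.7%) without overlap, with a median of 0.10. The shares over all tested probe sets were 20.7% and 16.7%, and 12 probe sets are few for such a comparison. They covered 9 genes, so probe sets of the same gene were counted separately. S100a13, named after its values were seen, was counted as higher at log2 differences of 0.36 and 0.29, and overlapped at 0.14. S100a6 gave 6977 and 6925 in knockout against 4671 and 4504 in wild type (log2 difference 0.60, limma adjusted p = 0.694). S100a10 gave 1023 and 966 against 679 and 691 on a weaker probe set (log2 difference 0.54, limma adjusted p = 0.724) and -0.06 on a stronger one. Both are relatives of S100a1 found in many cell types.

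Of calcium entry, extrusion and adrenergic input, 12 probe sets were tested and 9 overlapped. Without overlap, 1 of 5 for entry and 1 of 2 for extrusion were higher, and 1 of 5 for adrenergic input was lower. The shares over all tested probe sets were 20.7% higher and 16.7% lower. Trpc1, a cation channel, gave 397 and 614 in knockout against 396 and 325 in wild type (log2 difference 0.46, limma adjusted p = 0.820), and Stim1, the sensor of store filling, 430.0 and 338 against 336 and 908 (log2 difference -0.53, limma adjusted p = 0.859). The sodium-calcium exchanger Slc8a1 had 0.10 on its bright probe set, with 17709 and 17200 against 15684 and 16809, and 0.21 on a weaker one. Adcy6, an adenylyl cyclase of the heart, gave 4479 and 3494 against 5019 and 4764 (log2 difference -0.31, limma adjusted p = 0.830), and Gnai2 had -0.10 on the probe set with the next lowest p.

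**Figure D4:**
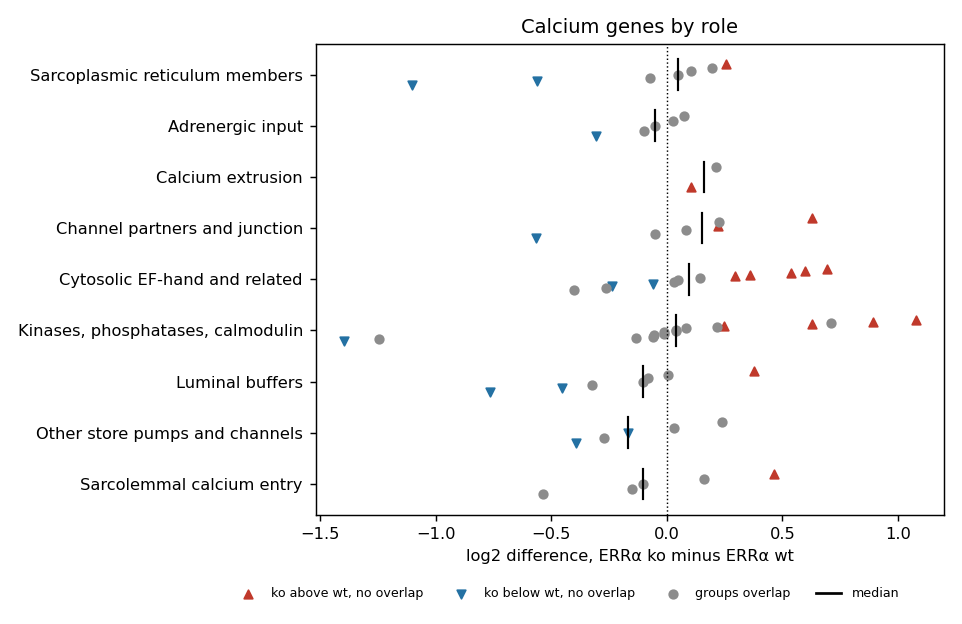
Log2 difference, knockout minus wild type (x axis), of the 7 tested probe sets of the group (top row) and of 58 probe sets of other calcium genes by role; triangles up and down mark knockout above or below wild type without overlap, grey circles overlap, and black lines the median of each row. Hrc at -1.10 is the lowest of the top row, and the row medians lie between -0.17 and 0.16.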

How the data were processed

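RNA from ventricles of 2 ERRα knockout and 2 wild-type samples was hybridised as biotin-labelled cRNA to Affymetrix arrays, per the labels' protocols. The authors deposited 1 linear intensity per probe set and array, scaled so that the mean after leaving out 2% at each end was 1501 on every array. The software and background correction are not given in the sources used here. The number of arrays limits the precision.

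Gene symbols came from the platform annotation, and 10839 of 10855 probe sets with 1 symbol matched RefSeq by gene ID; 396 had several symbols and 1237 none. The 66 control probe sets and those with a mean under the 40th percentile (350.6) were left out. Signals under 110, the 20th percentile, were set to 110 and log2 was taken. A limma 3.58.1 fit (R 4.3.3) of knockout against wild type over 7453 probe sets gave the differences and intervals, called at a Benjamini-Hochberg adjusted p of 0.05; the steps were tested on simulated data. With 2 arrays on each side, the smallest two-sided p of an exact permutation test is 0.333, so none is given.

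The members and lists were chosen with earlier results of these data known. The naming rule took every member, Esrra, the 2 lowest p of each role, and the 3 profiles nearest to a member that differed at least 1.5-fold without overlap. Single genes of the cell type marker lists fall outside this rule and were named after their values were seen. The labels do not say that the sample numbers join samples across genotypes, so the arrays were not paired. Same-numbered arrays also did not deviate together (correlation 0.011 over probe sets). Alternatives changed the scaling, floor, filter, prior, pairing and the arrays used. The planned comparison of protein sequences was not run.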

Additional observations from a re-analysis of the deposited data

How the results depend on the processing

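The differences of Hrc, Sri, Casq1 and S100a1 kept their sign in 12 of 12 alternatives each, and no member passed in any of them. Hrc ran from -1.23 to -0.98 (limma adjusted p 0.194 to 0.843) and Sri from -0.68 to -0.46 (0.458 to 0.885). The sign of Atp2a2 turned after quantile normalization (0.0253), and those of Ryr2 and Casq2 after median scaling (-0.0768 and -0.0176). When arrays were left out in turn, Atp2a2 ran from -0.217 to 0.0713, Ryr2 from -0.0832 to 0.177 and Casq2 from -0.0376 to 0.250. The median of the members was -0.0768 after median scaling and ran from -0.0376 to 0.177 when arrays were left out; it was 0.177 without wild-type sample 2. Relative to the median of all tested probe sets, Ryr2 had 0.017 as deposited and 0.019 after median scaling, and Casq2 0.076 and 0.078. By the same measure Atp2a2 had -0.10 as deposited and 0.03 after quantile normalization. The cause of the changes of sign was not tested.

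The number of probe sets that passed, 1 as reported, was 0 when the floor was the 5th or 40th percentile, with no filter, with the replicate number as a block and without any 1 array (0 to 0), and 2 with the filter at the 60th percentile and with a trended, robust prior. Probe sets at least 1.5-fold apart without overlap numbered 823, 1488 with no filter, 327 with the stricter filter and 1383 to 1523 without 1 array, where 2 arrays meet 1. Of them 510 were higher and 313 lower as deposited, 391 and 420 after quantile normalization, and 324 and 527 after median scaling. With the replicate number as a block, Hrc and Sri had the same differences and limma adjusted p of 0.750 and 0.758. The unadjusted limma p of Sri, under 0.05 as reported, was 0.0815 with the block and 0.0727 to 0.165 without any 1 array. Leaving out wild-type sample 1, where Nppb and Rcan1 stood highest, gave Hrc -0.98 and Sri -0.53.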

Other observations

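Genes that neighbour Hrc and Sri in the RefSeq gene order were read as values, a choice made after the array values were seen. The 3 nearest protein-coding genes with a tested probe set on each side of Hrc were Cd37, Tead2 and Pih1d1 before it and Lhb, Ruvbl2 and Gys1 after it, with 3 to 10 other protein-coding genes between. Cd37, a tetraspanin of white blood cells, gave 360.4 and 293 in knockout against 697 and 564 in wild type (log2 difference -0.95, limma adjusted p = 0.694). The other 5 had log2 differences of 0.04, 0.22, 0.40, -0.05 and 0.01, and Gys1, the muscle glycogen synthase, gave 10005 and 10216 against 10700 and 9411. Lhb, at 0.40, lay the other way from Cd37 without overlap, with 2802 and 2709 against 2442 and 1797 (limma adjusted p = 0.814). Thus 1 of the 6 was lower and 1 higher without overlap, close to the 16.7% and 20.7% of all tested probe sets. For Sri, Akap9 was read before it, with 15 other protein-coding genes between. Abcb1a, Abcb4 and Dmtf1 were read after it, with 4, 6 and 9 between. These 4 genes ran from -0.47 to 0.53 with overlapping groups.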
